A study of Homo sapiens with 4 samples.

Results

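The EGFR family comprises cell-surface receptors, the EGF-like growth factors that bind them and the proteins that limit their signal. The genes described here were chosen by name, 10 of the 60623 genes in the count files. They were the receptors EGFR, ERBB2 and ERBB3, the ligands AREG, EREG, HBEGF, TGFA, BTC and NRG1, and the receptor inhibitor ERRFI1. Their mRNA was measured in BICR10, an established human head and neck cancer cell line, transduced with lentivirus carrying either a control hairpin (shControl, 2 libraries) or a hairpin against YEATS2 (shYEATS2, 2 libraries). Per the study's methods, infection was done in medium with polybrene and transduced cells were selected with puromycin. YEATS2 is a reader of acylated histones, and the comparison asks how the level of each gene differed after its knockdown. The study lists more than 1 hairpin against YEATS2, and which of them each shYEATS2 library carried is not given in the sources used here. The labels do not say that the libraries of a group came from separate cultures, so the p-values measure the spread between these libraries, which may be technical. The test used shares this spread over genes, so it is not that of each gene alone.

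Libraries of polyA-selected RNA held between 11334133 and 47297970 counts on genes, and both shYEATS2 libraries were shallower than both shControl libraries, so that depth and knockdown cannot be told apart by design. YEATS2 itself was at 66.1 and 66.7 CPM (counts relative to the library's total, scaled by the TMM method) in shControl and at 29.2 and 29.1 in shYEATS2, a log2 fold change of −1.19 ± 0.08 (SE). Of 17058 genes tested with edgeR's quasi-likelihood test, 23.6% were called lower and 22.6% higher in shYEATS2 at a Benjamini-Hochberg adjusted p under 0.05 (46.2% in either direction). With library totals alone in place of TMM factors, 2567 genes were lower and 5441 higher, beside 4019 and 3857 with TMM, and the median of all genes moved from −0.01 to 0.13. A call was therefore common in these data, and the members are read below against these shares. Defining transcripts of squamous epithelium were unevenly present. TP63 had at most 3 counts in any library and KRT17 at most 15, while KRT6A was at 55.0 and 58.2 CPM in shControl and at 1.38 and 2.21 CPM in shYEATS2, and DSC3 at 8.33 and 9.21 CPM against 1.11 and 1.10 CPM. The summed level of 12 squamous markers was 324 and 343 CPM in shControl and 275 and 266 CPM in shYEATS2, most of it from the less specific SFN and PERP, and of 10 tested 6 were called lower and 2 higher. KRT5 was at 16.4 and 14.95 CPM in shControl and at 1.03 and 1.36 CPM in shYEATS2. CDH1, the epithelial cadherin, was low and moved the other way, from 0.353 and 0.318 CPM to 2.84 and 2.12 CPM. The 12 fibroblast markers, most of them collagen and matrix genes that mesenchymal carcinoma cells also express, summed to 9537 and 9420 CPM in shControl and to 3693 and 3471 CPM in shYEATS2, and 10 of the 11 tested were called lower, while THY1 had at most 13 counts. The leukocyte markers CD3E and CD68 were at 0 in every library, and the 6 leukocyte markers summed to between 0.908 and 1.92 CPM. Only CD14 of these had enough counts for a test. It was at 1.74 and 1.53 CPM in shControl and at 0.553 and 1.19 CPM in shYEATS2, and was called lower (−1.08 ± 0.36). Among the 6 endothelial markers only KDR was above 2 CPM, at 33.8 and 35.1 CPM in shControl and 17.0 and 17.4 CPM in shYEATS2. In RNA from a whole culture, fewer cells of a type and less RNA per cell cannot be told apart, and the part of these marker shifts in the results below was not tested.

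As background, the receptors are tyrosine kinases that signal as dimers. EGFR binds ligands such as AREG, EREG, HBEGF, TGFA, BTC, EGF and EPGN, while ERBB3 and ERBB4 bind the neuregulins. ERBB2 has no known soluble ligand and acts as a partner of the others. ERBB3 has a kinase domain with little activity of its own and passes the signal on through its partner. Ligands are made as membrane-bound precursors that are cut from the surface by proteases of the ADAM family. ERRFI1, also called MIG6, binds the kinase domain of EGFR and ERBB2 and inhibits it, and its gene is itself switched on by ERK signalling. EGFR is highly expressed in most head and neck squamous carcinomas and is a drug target there.

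To show the genes behind the results, the 250 bases that precede the start of 6 family genes were read from RefSeq (GRCh38.p14). Each runs 5′ to 3′ on the strand of the gene, and the first listed start was taken. EGFR, ERRFI1 and HBEGF are shown as the receptor, the inhibitor and the ligand on which the results turn, and AREG, EREG and EPGN as neighbours in a cluster of ligand genes on chromosome 4 whose changes were unlike. Capitals mark the letters of a GC box (GGGCGG or CCGCCC), a cyclic AMP response element (CRE, TGACGTCA) or a TATA box (TATAAA), searched on both strands. The AP-1 motif (TGANTCA) was searched likewise, and none of the 6 windows shown held it. The stretches lay at chr7:55018767-55019016 for EGFR and, on the minus strand, at chr1:8026310-8026559 for ERRFI1 and chr5:140346604-140346853 for HBEGF.
EGFR: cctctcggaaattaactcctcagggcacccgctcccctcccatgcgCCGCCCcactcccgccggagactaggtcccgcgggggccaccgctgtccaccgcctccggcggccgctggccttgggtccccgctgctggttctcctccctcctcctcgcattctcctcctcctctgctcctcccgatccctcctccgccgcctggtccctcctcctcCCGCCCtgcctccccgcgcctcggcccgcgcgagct
ERRFI1: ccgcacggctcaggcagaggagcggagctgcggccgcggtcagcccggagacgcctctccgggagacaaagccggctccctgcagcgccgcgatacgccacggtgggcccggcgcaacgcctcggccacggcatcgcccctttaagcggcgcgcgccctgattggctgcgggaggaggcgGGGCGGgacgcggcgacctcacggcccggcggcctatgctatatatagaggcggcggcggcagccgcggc
HBEGF: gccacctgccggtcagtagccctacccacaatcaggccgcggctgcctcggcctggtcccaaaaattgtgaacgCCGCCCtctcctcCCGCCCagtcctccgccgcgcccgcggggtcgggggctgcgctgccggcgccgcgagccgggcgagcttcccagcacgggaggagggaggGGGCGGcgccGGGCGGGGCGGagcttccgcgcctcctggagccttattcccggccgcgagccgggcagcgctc
In the cluster on chromosome 4, all on the plus strand, they lay at chr4:74308220-74308469 for EPGN, chr4:74364895-74365144 for EREG and chr4:74444886-74445135 for AREG.
EPGN: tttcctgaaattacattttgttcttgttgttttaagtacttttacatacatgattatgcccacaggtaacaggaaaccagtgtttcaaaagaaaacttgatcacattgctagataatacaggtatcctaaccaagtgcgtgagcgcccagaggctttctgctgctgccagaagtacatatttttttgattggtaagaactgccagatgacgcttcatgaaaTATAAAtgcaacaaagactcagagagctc
EREG: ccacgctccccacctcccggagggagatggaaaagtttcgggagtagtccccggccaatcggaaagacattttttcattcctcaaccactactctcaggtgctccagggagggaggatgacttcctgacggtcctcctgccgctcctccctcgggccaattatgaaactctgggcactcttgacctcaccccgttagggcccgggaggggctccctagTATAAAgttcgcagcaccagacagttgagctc
AREG: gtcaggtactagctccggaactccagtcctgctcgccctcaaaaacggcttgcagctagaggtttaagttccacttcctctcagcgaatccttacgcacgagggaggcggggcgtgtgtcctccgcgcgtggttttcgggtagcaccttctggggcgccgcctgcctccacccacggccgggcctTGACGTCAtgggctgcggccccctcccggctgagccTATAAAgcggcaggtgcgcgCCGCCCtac
EGFR held 2 GC boxes in this window, ERRFI1 1 and HBEGF 5, of which the last pair overlap. A GC box stood in 42.6% of 35116 RefSeq promoters of the same length. AREG, EREG and EPGN each had a TATA box, which stood in 10.7% of those promoters, at 29, 32 and 29 bases before the start. AREG alone among the 3 had a CRE, 65 bases before the start, and this motif stood in 1.65% of promoters. GC content was 73.6% for EGFR, 75.2% for ERRFI1, 76.4% for HBEGF, 65.2% for AREG, 58.0% for EREG and 38.0% for EPGN. The AP-1 motif stood in 6.57% of promoters. Outside the windows shown, a second listed EGFR promoter held 2 AP-1 motifs and 2 TATA boxes, and ERBB2 and EGF held 1 AP-1 motif each. Promoters were read for 14 of the 16 genes of the wider family, without ERBB3 and NRG1. These matches describe letters, not occupied sites.

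Of the 10 members, 9 had enough counts for a test and BTC did not. In shYEATS2, EGFR, AREG, HBEGF, TGFA, NRG1 and ERRFI1 were higher and ERBB2 was lower, while ERBB3 and EREG did not pass. Thus 6 of the 9 tested members were called higher, where 22.6% of all tested genes were, and 1 was called lower, where 23.6% were. The median log2 fold change over the 9 was 0.58, beside −0.01 over all tested genes, whose quartiles were −0.31 and 0.32. Groups did not overlap for any of the 9, with 7 above and 2 below shControl, in data where this held for 71.6% of tested genes.

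**Figure D1:**
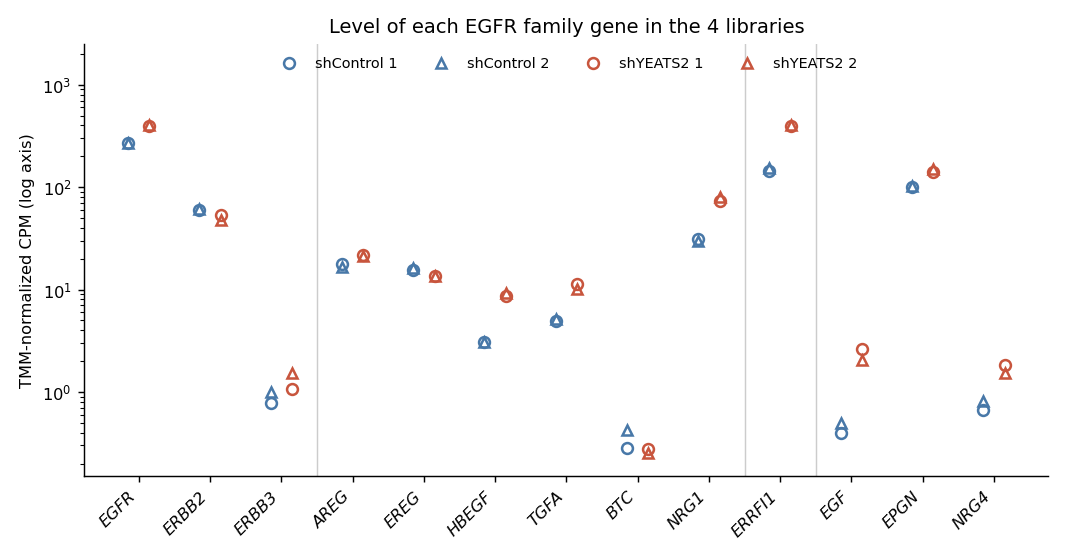
TMM-normalized CPM (log axis) of the 10 members and of EGF, EPGN and NRG4 in each of the 4 libraries, with circles for the libraries numbered 1, triangles for those numbered 2, and grey lines between receptors, ligands, ERRFI1 and the added ligands. The shYEATS2 libraries lie well above shControl for HBEGF, TGFA, NRG1, ERRFI1 and EGF, and slightly below it for ERBB2 and EREG.

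The receptors were examined first. EGFR (ENSG00000146648, chromosome 7, 55019017 to 55211628, GRCh38) was at 269 and 269 CPM in the shControl libraries and at 395 and 409 CPM in the shYEATS2 libraries. Both knockdown libraries were thus far above both controls, which differed from each other by less than 1 CPM. The rise was 1.49-fold (95% interval 1.38 to 1.62), a log2 fold change of 0.58 ± 0.06 (SE), with an edgeR adjusted p of 2.85e-13. EGFR was already abundant, since its mean CPM exceeded that of 97.6% of all tested genes. An antisense gene, EGFR-AS1, lies opposite to it and had at most 24 counts in a library.

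ERBB2, the receptor without a ligand of its own (ENSG00000141736, chromosome 17, 39687914 to 39730426), moved the other way. It was at 60.1 and 60.9 CPM in shControl and at 53.6 and 47.6 CPM in shYEATS2. The knockdown libraries were below both controls and differed more from each other than the controls did. The fall was small, to 84.3% of the control level, with a log2 fold change of −0.25 ± 0.07 and an edgeR adjusted p of 0.00423. It rested on the scaling: with library totals alone in place of TMM factors the value was −0.11 with an adjusted p of 0.213, and without the second shControl library it was −0.25 with an adjusted p of 0.0624. PGAP3 and MIEN1 overlap ERBB2 on the opposite strand, and the strand setting of the counting is not given in the sources used here. PGAP3 fell by 1.11 on the log2 scale and MIEN1 had a value of −0.15 that did not pass, and whether shared reads touched the value of ERBB2 was not tested.

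ERBB3, the neuregulin receptor (ENSG00000065361, chromosome 12), was close to the limit of detection, with 35 and 38 counts in shControl and 27 and 18 in shYEATS2. These corresponded to 0.772 and 1.01 CPM in shControl and to 1.07 and 1.53 CPM in shYEATS2. These values gave a log2 fold change of 0.49, a 95% interval of −0.25 to 1.23 (edgeR adjusted p = 0.286), and a difference was not detectable at this depth. ENSG00000257411 overlaps ERBB3 on the same strand and had 0 counts in every library, and whether shared reads lowered the ERBB3 counts was not tested. ERBB4, the remaining receptor of the family, had 6 and 6 counts in shControl and 1 and 0 in shYEATS2 and was not tested.

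To compare receptors with each other, counts were divided by the length of the union of exons and expressed relative to the sum over all genes of the library (TPM). On this scale EGFR was at 50.7 ± 0.22 (SD, n = 2) TPM in shControl and 87.5 ± 0.74 in shYEATS2, and ERBB2 at 17.6 ± 0.20 and 17.0 ± 1.96. ERBB3 was at 0.228 ± 0.043 TPM in shControl and 0.382 ± 0.084 in shYEATS2. TPM and TMM scale the libraries differently, which is why ERBB2 was nearly level in TPM and lower in CPM. Ratios within a library do not depend on the scaling. EGFR mRNA exceeded ERBB2 mRNA 2.89-fold and 2.87-fold in the shControl libraries, and 4.78-fold and 5.56-fold in the shYEATS2 libraries. The groups did not overlap, and an exact two-sided permutation test gave p = 0.333, the smallest that 2 libraries against 2 allow. EGFR made up 73.9% ± 0.18 of the summed TPM of the 4 receptors in shControl and 83.4% ± 1.38 in shYEATS2, and ERBB2 made up 25.7% ± 0.11 and 16.2% ± 1.46. With the length of the MANE Select transcript, a choice made after seeing the data, EGFR took 66.9% and 78.2%.

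Turning to the ligands, 5 of the 6 members were tested. Beside 22.6% of all tested genes called higher and 23.6% lower, 4 of the 5 were called higher by edgeR. Of these, AREG did not pass by DESeq2. By either tool 0 were called lower, and EREG was lower by edgeR at an unadjusted p under 0.05, 1 ligand in all. HBEGF, a heparin-binding ligand of EGFR and ERBB4 (ENSG00000113070, chromosome 5, 140332843 to 140346603), had the largest change. It was at 3.09 and 3.07 CPM in shControl and at 8.57 and 9.33 CPM in shYEATS2, from 110 to 217 counts in a library. The shYEATS2 libraries stood at 288% of the control level (95% interval of the fold 2.30 to 3.62), with a log2 fold change of 1.53 ± 0.16 and an edgeR adjusted p of 2.64e-12. Of all tested genes, 96.7% had a lower log2 fold change. With counts thinned to the smallest library total the log2 fold change of HBEGF was 1.18, and it passed there too (edgeR adjusted p = 1.65e-05).

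NRG1, the neuregulin that binds ERBB3 and ERBB4 (ENSG00000157168, chromosome 8), was at 31.3 and 29.98 CPM in shControl and at 73.7 and 80.9 CPM in shYEATS2. Its log2 fold change was 1.33 ± 0.07, a 2.51-fold rise (95% interval 2.26 to 2.78), with an edgeR adjusted p of 1.78e-24. The rise thus concerned a ligand whose own receptors, ERBB3 and ERBB4, were counted at or below 1.53 CPM in every library. ENSG00000286131 overlaps NRG1 on the same strand and had 0 counts in every library, and an effect of shared reads was not tested. TGFA, a ligand of EGFR (ENSG00000163235, chromosome 2), was at 4.96 and 5.19 CPM in shControl and at 11.2 and 10.2 CPM in shYEATS2. This gave a log2 fold change of 1.09 ± 0.14, a 2.13-fold rise (95% interval 1.75 to 2.59), with an edgeR adjusted p of 1.05e-09. In both genes the shYEATS2 libraries lay far above both controls.

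AREG and EREG, amphiregulin and epiregulin, lie side by side on chromosome 4, and their 95% intervals did not overlap. AREG (ENSG00000109321, 74445136 to 74455005) was at 17.6 and 16.4 CPM in shControl and at 21.7 and 21.2 CPM in shYEATS2. The groups were separate by a few CPM, and the log2 fold change of 0.34 ± 0.10 (95% interval 0.14 to 0.53) passed with an edgeR adjusted p of 0.00358. It did not pass in the test by DESeq2 (0.33, adjusted p = 0.0761) or without the second shControl library (0.28, adjusted p = 0.108). EREG (ENSG00000124882, 74365145 to 74388749) was at 15.4 and 16.1 CPM in shControl and at 13.5 and 13.5 CPM in shYEATS2. Both knockdown libraries were below the controls, and the log2 fold change of −0.22 ± 0.11 (95% interval −0.44 to −0.01) did not pass after adjustment (edgeR adjusted p = 0.0844). In TPM, EREG was at 8.29 ± 0.27 in shControl and 8.19 ± 0.26 in shYEATS2. The ratio of AREG to EREG per length, which is free of the scaling, was 3.98 and 3.55 in shControl and 5.61 and 5.47 in shYEATS2.

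BTC, betacellulin, completed the members with 13 and 16 counts in shControl and 7 and 3 in shYEATS2. At 0.287 and 0.423 CPM in shControl and 0.276 and 0.255 CPM in shYEATS2 it was too low for a test, and a difference was not detectable at this depth.

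**Figure D2:**
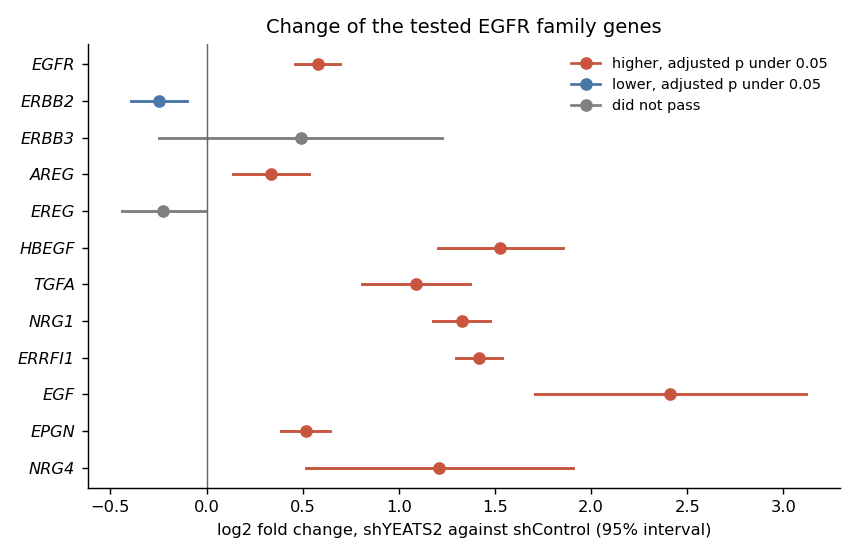
Log2 fold changes of shYEATS2 against shControl with 95% intervals for the 9 tested members and for EGF, EPGN and NRG4, coloured by the call at an adjusted p under 0.05. HBEGF (1.53), ERRFI1 (1.42), NRG1 (1.33) and TGFA (1.09) lie clear of 0, EGFR (0.58) and AREG (0.34) are smaller rises, ERBB2 (−0.25) lies just below 0 and the interval of ERBB3 crosses 0.

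ERRFI1, the inhibitor (ENSG00000116285, chromosome 1, 8004404 to 8026309), was the member with the strongest evidence of change. It was at 145 and 154 CPM in shControl and at 394 and 403 CPM in shYEATS2, from 4746 to 9987 counts in a library. The difference between groups was many times the spread within either pair. The rise was 2.67-fold (95% interval 2.46 to 2.90), a log2 fold change of 1.42 ± 0.06, with an edgeR adjusted p of 5.32e-31. The interval of this rise lay above that of EGFR, the receptor it inhibits. Per length, it exceeded EGFR 2.05-fold and 2.18-fold in the shControl libraries and 3.80-fold and 3.76-fold in the shYEATS2 libraries (exact two-sided permutation p = 0.333, the smallest possible). In TPM, ERRFI1 was at 107 ± 4.89 in shControl and 331 ± 5.55 in shYEATS2.

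Ordered by TPM in shControl, the members were ERRFI1, EGFR, AREG, ERBB2, EREG (8.29), NRG1 (4.31), TGFA (3.10), HBEGF (3.09), BTC (0.402) and ERBB3 (0.228). TGFA and HBEGF were indistinguishable there, since the HBEGF libraries lay within the range of the TGFA libraries. In shYEATS2, NRG1 (12.5) and HBEGF (10.4) had passed EREG (8.19), which lay beside TGFA (7.55) with overlapping libraries. ERBB3 (0.382) and BTC (0.347) overlapped as well. The ratio of HBEGF to EREG was 0.382 and 0.364 in shControl and 1.21 and 1.32 in shYEATS2, so HBEGF changed from the less to the more abundant of the pair.

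The remaining receptors and ligands of the family, 6 genes outside the members, were examined to complete the picture. EPGN, epigen, a low-affinity ligand of EGFR at one end of the chromosome 4 cluster (74308470 to 74316789), was at 101 and 103 CPM in shControl and at 141 and 152 CPM in shYEATS2, a log2 fold change of 0.52 ± 0.06 (edgeR adjusted p = 2.62e-10). EGF, the ligand that gave the receptor its name, had 18 and 19 counts in shControl and 66 and 24 in shYEATS2, or 0.397 and 0.503 CPM against 2.61 and 2.04 CPM. Its log2 fold change was 2.41 with a wide 95% interval of 1.71 to 3.12. NRG4, a neuregulin for ERBB4, had 30 and 31 counts in shControl and 46 and 18 in shYEATS2, with a log2 fold change of 1.21 ± 0.35 (edgeR adjusted p = 0.00292) that did not pass in the test by DESeq2 (adjusted p = 0.0944) or without the first shYEATS2 library (adjusted p = 0.0950). FBXO22, which overlaps NRG4 on the opposite strand, fell by 0.23 on the log2 scale. All 3 of these tested genes were called higher, beside 22.6% of all tested genes. ERBB4, NRG2 and NRG3 had at most 6 counts in any library and were not tested.

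Among all 11 ligands, EPGN held most of the ligand mRNA. It accounted for 64.6% ± 0.80 (SD, n = 2) of their summed TPM in shControl and for 64.0% ± 1.23 in shYEATS2, and the libraries of the groups overlapped. AREG followed with 21.6% in shControl and 18.9% in shYEATS2, and EREG took 5.75% and 3.40%. HBEGF, TGFA and NRG1 had small shares that were larger in shYEATS2, 2.14% against 4.31% for HBEGF, 2.15% against 3.14% for TGFA and 2.99% against 5.21% for NRG1. With MANE Select lengths, the share of NRG1 was 4.20% in shControl and 7.26% in shYEATS2, and that of EPGN 62.6% and 61.5%. The summed TPM of the 11 ligands was 144 ± 0.38 in shControl and 241 ± 0.04 in shYEATS2, a sum that, unlike the shares, carries the difference between TPM and TMM scaling. Among the 6 member ligands alone, AREG took 61.9% ± 1.56 in shControl and 53.8% ± 1.03 in shYEATS2, and EREG 16.5% ± 0.91 and 9.71% ± 0.02. The share of HBEGF among them was 6.14% in shControl and 12.3% in shYEATS2, and that of NRG1 8.56% and 14.9%. With 2 libraries in a group these shares were given no test beyond the spread.

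**Figure D3:**
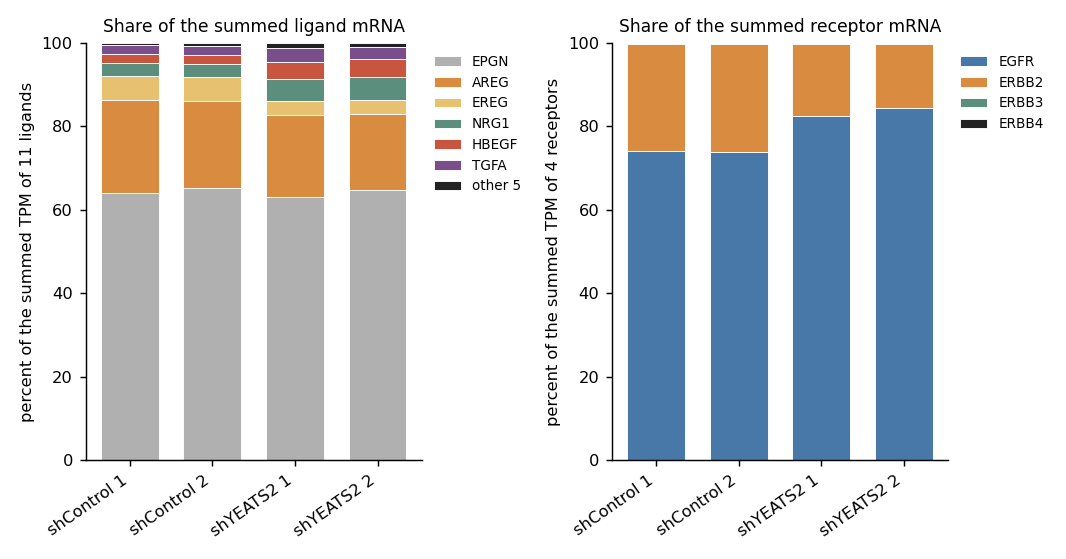
Stacked shares, in percent of summed TPM, of 11 ligand genes (left) and 4 receptor genes (right) in each library; bars start at 0 and the black segment at left sums BTC, EGF, NRG2, NRG3 and NRG4. EPGN takes between 63.1% and 65.2% in the 4 libraries, the segments of NRG1, HBEGF and TGFA are taller and that of EREG shorter in shYEATS2, and EGFR takes 73.9% of the receptors in shControl and 83.4% in shYEATS2.

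EPGN, EREG, AREG and BTC form a cluster of 486 kb on chromosome 4, with gaps of 48.4, 56.4 and 290 kb between neighbours. EPGN at 0.52 and AREG at 0.34 were called higher, EREG between them had −0.22 and did not pass, and BTC was not tested. Within this cluster, the TATA box in the windows shown above was present in EPGN and AREG, which rose, and in EREG, which did not pass. The windows of EGFR, ERRFI1 and HBEGF, genes also called higher, held no TATAAA. Variants of this motif were not searched, and the ERRFI1 window held the letters tatatata close to the start of the gene. The absence of TATAAA therefore does not mark these windows as free of a TATA box.

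Around the receptors and ligands stand the genes that cut the ligands, carry the signal, switch the receptors off and respond to ERK. Of the 10 genes of ligand shedding, all tested, 3 were called higher and 4 lower, beside 22.6% and 23.6% of all tested genes. Their median log2 fold change was −0.14. ADAM17, the protease that releases AREG, HBEGF and TGFA, was at 94.9 and 91.4 CPM in shControl and 116 and 118 CPM in shYEATS2, a log2 fold change of 0.33 ± 0.06. ADAM10, which cuts EGF and betacellulin, was at 290 and 298 CPM in shControl and 216 and 239 CPM in shYEATS2, a change of −0.37 ± 0.06. TIMP3, an inhibitor of ADAM17, rose by 0.58 ± 0.08, and RHBDF1, a rhomboid protein that brings ADAM17 to the cell surface, fell by 0.40 on the log2 scale.

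Of the adaptors and the RAS, ERK and PI3K relay, 24 of 26 genes were tested. Here 3 were called higher and 7 lower, beside 22.6% and 23.6% of all tested genes, and the median was −0.05. PIK3R1, a regulatory subunit of PI3K, had the largest change among them, from 163 and 164 CPM in shControl to 49.4 and 60.4 CPM in shYEATS2, a log2 fold change of −1.59 ± 0.07. Its partner PIK3CA, a catalytic subunit, rose by 0.65 ± 0.08, so that this pair of subunits changed in opposite directions. Another catalytic subunit, PIK3CB, had −0.12 ± 0.07 and did not pass. The regulatory subunit PIK3R2 had at most 5 counts in a library and was not tested. PLCG1, a phospholipase that binds activated EGFR, fell by 0.55 on the log2 scale.

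Receptor downregulation, by ubiquitin ligases, endosomal sorting and phosphatases, had 21 of 22 genes tested. Of these, 9 were called higher and 3 lower, beside 22.6% and 23.6% of all tested genes, with a median of 0.10. NEDD4L, a ubiquitin ligase, was at 28.3 and 29.0 CPM in shControl and 64.9 and 69.9 CPM in shYEATS2, a log2 fold change of 1.23 ± 0.08. RNF41, the ligase that targets ERBB3 and is also named NRDP1, rose from 29.9 and 28.1 CPM to 56.6 and 56.8 CPM (0.97 ± 0.08). SOCS3, a suppressor of cytokine signalling, rose by 1.004 ± 0.11. CBL, the ubiquitin ligase best known for EGFR, had a log2 fold change of −0.16 that did not pass (edgeR adjusted p = 0.0515), and CBLB rose by 0.34 ± 0.06; both were named after their values were seen.

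The genes of ERK output and feedback, which ERK signalling is known to induce, had the highest median of the pathway lists. The lists were chosen with earlier results of these data known, so the counts are descriptive. All 22 were tested, of which 17 were called higher and 0 lower, beside 22.6% and 23.6% of all tested genes. Their median log2 fold change was 0.96. By edgeR at an unadjusted p under 0.05, and by DESeq2, the count lower was also 0. DUSP4, a phosphatase that acts on ERK, was at 4.59 and 4.47 CPM in shControl and 20.1 and 18.3 CPM in shYEATS2, a log2 fold change of 2.10 ± 0.12. DUSP5, a nuclear ERK phosphatase, went from 9.57 and 10.03 CPM to 39.5 and 36.4 CPM (1.96 ± 0.10). PHLDA1, a feedback gene of receptor tyrosine kinases, went from 50.1 and 51.4 CPM to 177 and 179 CPM (1.81 ± 0.07). In all 3 the shYEATS2 libraries were more than 3 times the controls. The 5 genes that did not pass were SPRY1, SPRED1, EGR1, FOS and EPHA4, with log2 fold changes between −0.37 for FOS and 0.04 for EPHA4. Thus the immediate early genes EGR1 and FOS did not move with the phosphatases. Other early response genes of the list, IER3, MYC and FOSL1, were called higher, with rises of 1.15 ± 0.08, 1.06 ± 0.07 and 0.60 ± 0.07. No phosphorylation was measured, and the part of the fibroblast and squamous marker shifts in these counts was not tested.

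**Figure D4:**
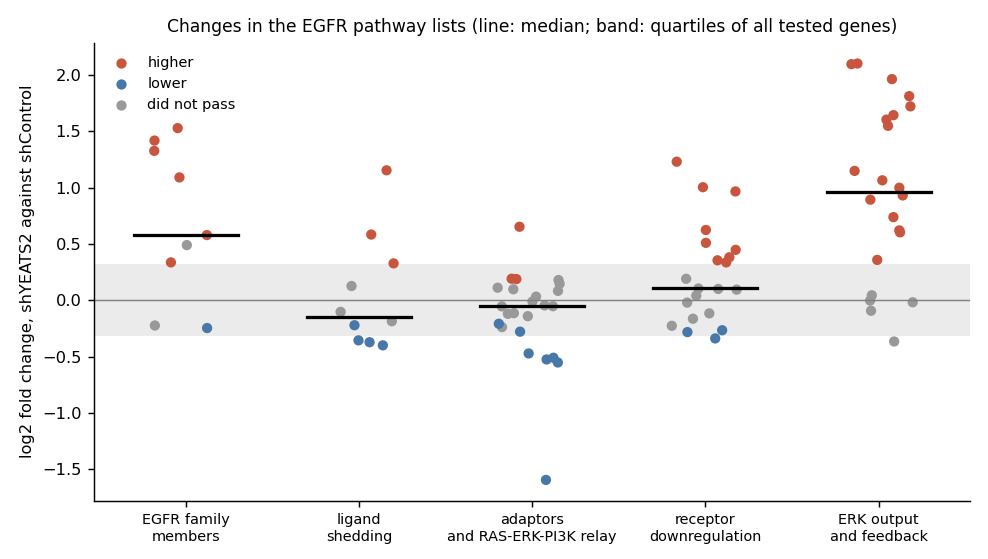
Log2 fold change of every tested gene in the EGFR family members and 4 pathway lists, coloured by call, with the median of each list as a black line and the quartiles of all tested genes as a grey band. The ERK output and feedback genes (median 0.96) and the members (0.58) lie mostly above the band, while ligand shedding (−0.14), relay (−0.05) and receptor downregulation (0.10) are centred within it.

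The values of the members were then followed across 12 alternative ways of processing. EGFR lay between 0.53 and 0.71, HBEGF between 1.18 and 1.66, TGFA between 0.99 and 1.23, NRG1 between 1.26 and 1.46 and ERRFI1 between 1.37 and 1.55, all called higher in each. ERBB2 lay between −0.36 and −0.11 and AREG between 0.28 and 0.47, and each lost its call under 2 of the alternatives, those given above. EREG lay between −0.27 and −0.09 and ERBB3 between 0.27 and 0.93, and neither passed in any.

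**Figure D5:**
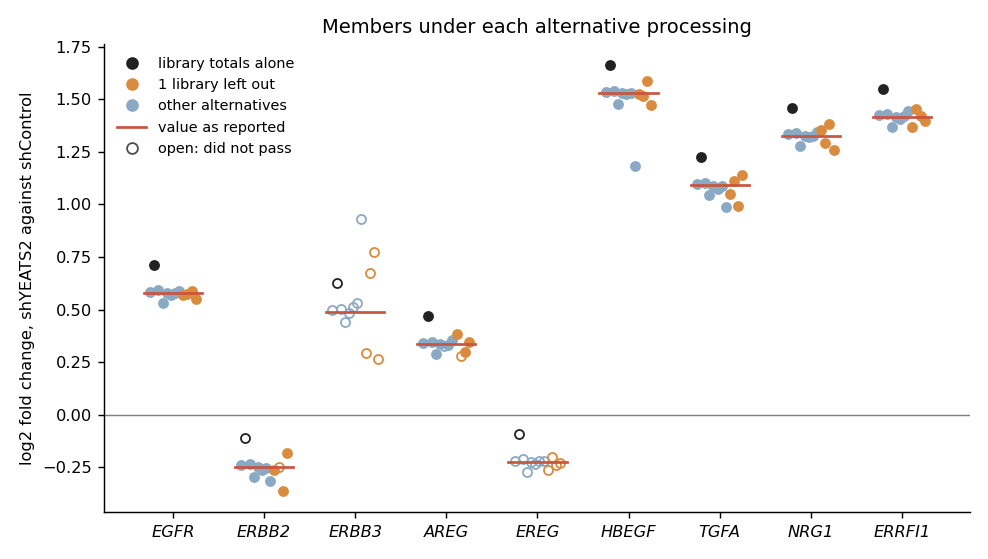
Log2 fold change of the 9 tested members under each of the 12 alternatives (points, filled where the adjusted p was under 0.05) beside the value as reported (red line), with library totals alone in black and fits without 1 library in orange. The values of EGFR, HBEGF, TGFA, NRG1 and ERRFI1 stay filled and far above 0, and library totals alone shift all members upwards.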

How the data were processed

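RNA from BICR10 cells with a control or a YEATS2 hairpin was sequenced as stranded polyA libraries. Per the labels and methods, the authors aligned reads to GRCh38 with STAR, counted them per gene with HTSeq and deposited the counts without normalization. The annotation release and the strand setting of the counting are not given in the sources used here. Tally rows for reads given to no gene, 15.3% to 16.5% of each file, were left out. Here, genes were kept by filterByExpr, scaled by TMM and compared by the robust quasi-likelihood test of edgeR 4.0.16 (R 4.3.3) on 4 libraries without covariates, with Benjamini-Hochberg adjustment over all 17058 genes and a threshold of 0.05. The study used DESeq2, here an alternative (1.42.0). The common biological coefficient of variation was 4.95%. Variance was shared over genes, with a median of 65.5 total degrees of freedom. Libraries of a group differed beyond counting noise (chi-square over its degrees of freedom 6.43 for shControl, 6.12 for shYEATS2). Scripts were tested on simulated data. SE is the log2 fold change over the square root of F, and intervals cover 95%.

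TPM values used union exon lengths from GENCODE, matched for 60295 of 60623 genes; MANE Select lengths were an alternative added after seeing the data. Promoters came from RefSeq (GRCh38.p14). The other alternatives were DESeq2 size factors, library totals or upper quartiles as scaling, no filter on low counts or a stricter one of 10 counts per library, a replicate block, thinning to the smallest total, and leaving out each library. The members, gene lists and alternatives were chosen with earlier results of these data known. All members and the other family genes are named, plus in each pathway list the 3 called genes with the largest absolute change, a mean of at least 10 CPM and groups that did not overlap. ADAM17, PIK3CB, PIK3R2, CBL, CBLB, IER3, MYC, FOSL1, PGAP3, MIEN1 and FBXO22 were named after their values were seen. So were the marker genes, the genes of ERK output that did not pass and the neighbours in the closing section.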

Additional observations from a re-analysis of the deposited data

How the results depend on the processing

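Over 12 alternatives, 25 named genes gave 300 log2 fold changes, of which 294 kept their direction and side of the threshold, 6 lost their call (ERBB2, AREG and NRG4, 2 each, with values in the report) and 0 changed sign. With library totals alone, 2567 genes were lower (4019 as reported), 0 members, 2 genes of ligand shedding and 1 of receptor downregulation were lower, and 8 relay genes and 14 genes of receptor downregulation were higher. This scaling moved the median of all genes to 0.13. The test by DESeq2 called 2393 genes higher (3857 as reported). Without a filter on low counts, which moved the median to −0.10 over 33310 genes, 1 relay gene was higher and 5 genes of receptor downregulation were lower. With 1 library left out at a time, the lone library of its group being assumed to vary like the others, the counts ranged from 0 to 1 for members lower (0 without the second shControl library), from 5 to 6 for members higher, from 1 to 4 for relay genes higher (1 without either shControl library), from 2 to 5 for receptor downregulation lower (5 without the first shYEATS2 library) and from 0 to 1 for ERK output lower (1 without the first shYEATS2 library). The library numbers did not pair the samples (correlation of the differences of −0.018 over genes), and with a replicate block 6 members were higher and 1 lower, with 4142 genes lower and 3870 higher. Depth limited ERBB3, BTC, ERBB4, NRG2 and NRG3, where 3 counts, the limit that a count of 0 allows, stood for 0.0634 to 0.265 CPM of the library total; this covers counting error only.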

Other observations

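The genes within 500 kb of the chromosome 4 ligand cluster did not move as one. The chemokine genes CXCL2 and CXCL3, which lie upstream of EPGN and attract neutrophils, rose by 1.47 ± 0.22 (SE) and 1.14 ± 0.18 on the log2 scale. A further chemokine gene, CXCL1, within 500 kb of EPGN and EREG but not of AREG, had a value of 0.42 that did not pass. PARM1, within 500 kb of AREG but not of EREG or EPGN, fell by 1.34. MTHFD2L had a value of 0.05 that did not pass. Of 6 tested protein-coding neighbours of AREG, 3 were called higher and 1 lower by edgeR, beside 22.6% and 23.6% of all tested genes. The 6 include EPGN, called higher, and EREG, both reported above.

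Around EGFR, 3 neighbours were tested, of which LANCL2 fell by 0.61 on the log2 scale, VOPP1 rose by 0.26 and SEC61G had −0.02 and did not pass. Around ERRFI1, 2 of 7 were called higher and 3 lower, with log2 fold changes between −0.74 and 0.60, below the 1.42 of ERRFI1. Around HBEGF, 3 of 19 were called higher and 4 lower, with log2 fold changes between −1.08 and 0.58, below the 1.53 of HBEGF. Around ERBB2, 3 of 20 were called higher and 5 lower, with a median of −0.02. Beside all these neighbour counts stand the 22.6% of all tested genes called higher and the 23.6% called lower.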
